A study of Homo sapiens with 8 samples.

Results

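Solute carriers are membrane proteins that move amino acids, sugars, ions, metals, nucleotides and vitamins across the plasma membrane and the membranes of organelles. The genes described here are those whose symbol in the peak lists reads SLC, a family number, the letter A and a member number. By that rule 123 of the 8758 genes with an m6A peak in at least 1 of 4 lists were members, with 266 of the 32353 peaks of U2OS NC, 224 of 29992 for U2OS shMETTL14, 264 of 33082 for 143B NC and 299 of 35195 for 143B shMETTL14. The name fits 118 of them. The other 5 carry the name of a carrier that they bind, regulate or neighbour: SLC9A3R1 and SLC9A3R2 (the scaffold proteins NHERF1 and NHERF2), SLC4A1AP (kanadaptin), SLC2A4RG (a transcription factor) and SLC7A6OS. RefSeq (GRCh38.p14, used for symbols) holds 347 protein-coding symbols of this form, and 118 of these (34.0%) had a peak in at least 1 list. The same share over all protein-coding genes was not taken. Carriers that the lists give under another symbol would be missed, so 34.0% may be too low.

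U2OS and 143B are established human osteosarcoma cell lines. Per the labels, each line has a group with a control hairpin (shNC, here NC) and a group with a hairpin against METTL14 (shMETTL14). The labels' protocol names lentiviral infection for all of them, without describing the control hairpin. Each group has 1 input library and 1 library enriched with an antibody against m6A, and the 4 peak lists come from the enriched libraries. The labels do not say whether cells were pooled or cloned after infection, nor how many hairpins were used.

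N6-methyladenosine (m6A) is placed on messenger RNA by a complex in which METTL3 holds the catalytic site and METTL14 helps to bind the RNA. The mark is found mostly in coding sequence near the stop codon and in the 3' UTR, and reader proteins that bind it can change the stability and translation of the RNA. Carrier messages are of interest in tumour cells because glucose, lactate, glutamine, cystine and iron all enter or leave the cell through solute carriers.

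A peak is listed once for every transcript isoform it lies in. Overlapping peaks of 1 list and strand were joined to sites, which gave SLC genes 127 sites for U2OS NC, 103 for U2OS shMETTL14, 106 for 143B NC and 116 for 143B shMETTL14. A site of the NC list that no shMETTL14 peak of the same line overlaps by at least 1 bp is called lost. A site of the shMETTL14 list without such an NC partner is called gained, and all others are called kept. These words describe the lists. RNA levels were not analysed here, so fewer methylated copies and less RNA cannot be told apart.

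The targeted gene, METTL14, had 3 sites for U2OS NC, 2 for U2OS shMETTL14, 1 for 143B NC and 2 for 143B shMETTL14, which does not measure its RNA. RUNX2, a defining factor of the bone lineage, had a site in each list. COL1A1 had one in all but 143B NC, while SP7, ALPL, COL1A2, BGLAP and SPP1 had none. Of the blood and endothelial markers examined, CD68 was listed, and of the epithelial markers KRT8 and, in 143B, KRT18. No read counts are given, so the depth behind every peak is unknown.

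The share of SLC sites within the 3' UTR was higher, and the share in coding sequence lower, than among all sites of each list. In U2OS NC 75 of the 127 SLC sites (59.1%) lay within the 3' UTR, where 30.6% of all sites of that list lay. The corresponding shares were 47.6% against 30.6% for U2OS shMETTL14, 49.1% against 32.8% for 143B NC and 48.3% against 33.9% for 143B shMETTL14. Coding sites made up 22.0%, 31.1%, 30.2% and 27.6% of SLC sites in the same order, against 46.0%, 46.6%, 42.9% and 41.9% of all sites. Sites across the stop codon took 11% to 14.7% of SLC sites and 15.1% to 16.0% of all sites. Sites listed with more than 1 block, which cross a splice junction, were 7.09% to 15.1% of SLC sites and 27.2% to 31.0% of all sites.

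**Figure D1:**
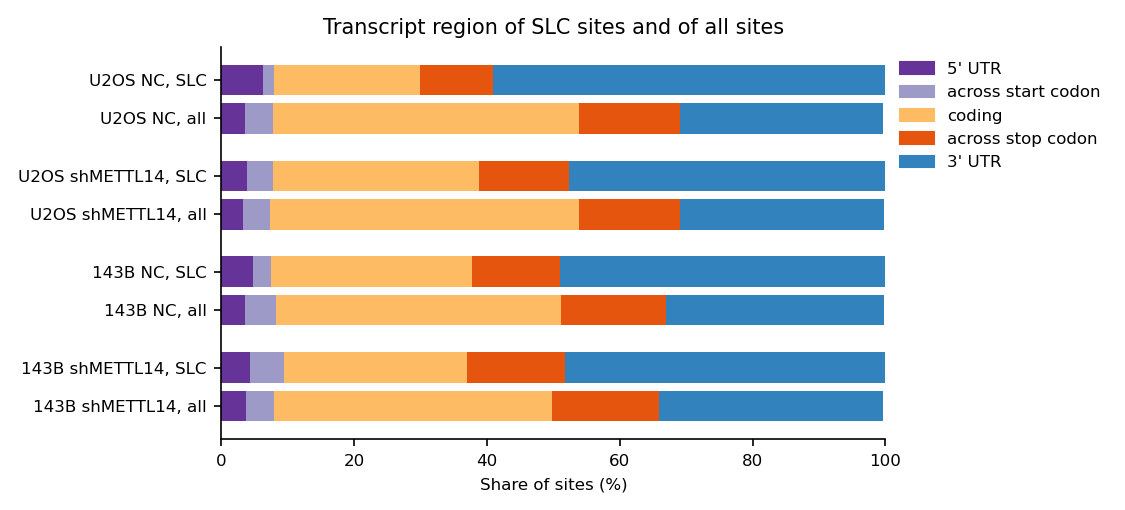
Share of sites (%) in each transcript region, as the authors annotated it, for SLC sites and for all sites of each of the 4 lists. The 3' UTR segment is longer for SLC sites in every list, 47.6% to 59.1% against 30.6% to 33.9%.

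SLC sites were weaker by the authors' p-value than the sites of the list they came from. The median p-value was 0.00012 for SLC sites and 8.5e-06 for all sites of U2OS NC, 5.0e-05 and 6.2e-06 for U2OS shMETTL14, 2.7e-05 and 1.4e-05 for 143B NC, and 9.3e-06 and 2.0e-06 for 143B shMETTL14. Median fold enrichment, the authors' linear ratio of enriched over input RNA, was near that of all sites, at 3.74 against 3.85, 3.92 against 3.86, 4.42 against 4.16 and 3.71 against 3.96. A gene with SLC sites had 1.59, 1.41, 1.41 and 1.36 of them on average, where all genes had 1.80 to 1.88. Genes with a single site made up 61.3% to 71.2% of the SLC genes in a list and 52.6% to 55.3% of all genes.

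In U2OS, 56 of 127 SLC sites were lost with shMETTL14 (44.1%, exact Clopper-Pearson interval 35.3 to 53.2), where 31.2% of all sites were lost. Gained SLC sites numbered 30 of 103 (29.1%, interval 20.6 to 38.9), and 24.9% of all sites were gained. In 143B, 37 of 106 SLC sites were lost (34.9%, interval 25.9 to 44.8) beside 24.6% of all sites, and 49 of 116 were gained (42.2%, interval 33.1 to 51.8) beside 32.0%. All 4 SLC shares were above that of the whole list, and the U2OS gained share has the whole-list value inside its interval. These intervals are at the 95% level, cover counting error alone, and treat sites of 1 gene as independent. With 1 list per group no replicate check was possible.

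The p-value of a site moved with these shares. Lost SLC sites had a median p-value of 0.00032 in U2OS and 0.00063 in 143B, and kept ones 5.1e-06 and 4.2e-06. Each list was then split by p-value into 4 bins of about equal size. For losses in U2OS the SLC share was above that of all sites in the first 3 bins and below it in the last. In the bin of lowest p-values 3 of 22 SLC sites were lost (13.6%) and 20 of 2930 of all sites (0.683%), followed by 33.3% against 15.4%, 48.4% against 43.8% and 61.7% against 64.8%. For gains in U2OS the SLC share was above in the third bin (42.3% against 32.6%). It was below in the second (8.33% against 10.3%) and in the last (45.9% against 56.4%). In the first bin 0 of 16 SLC sites were gained, which allows a share of up to 18.8%, and 11 of 2697 of all sites (0.408%). For losses in 143B the first bin had 0 of 20 SLC sites, which allows up to 15.0%, and 29 of 3063 of all sites (0.947%). These 2 bins hold too few SLC sites to place the SLC share above or below. In the later bins of 143B losses the SLC share was above that of all sites, at 20% against 10.9%, 34.6% against 34.4% and 73.3% against 52.3%. For gains in 143B it was above in all 4 bins, at 5.0% against 0.806%, 25% against 17.4%, 58.1% against 43.9% and 66.7% against 65.8%. The part that peak strength plays in the SLC shares was not tested beyond these values.

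**Figure D2:**
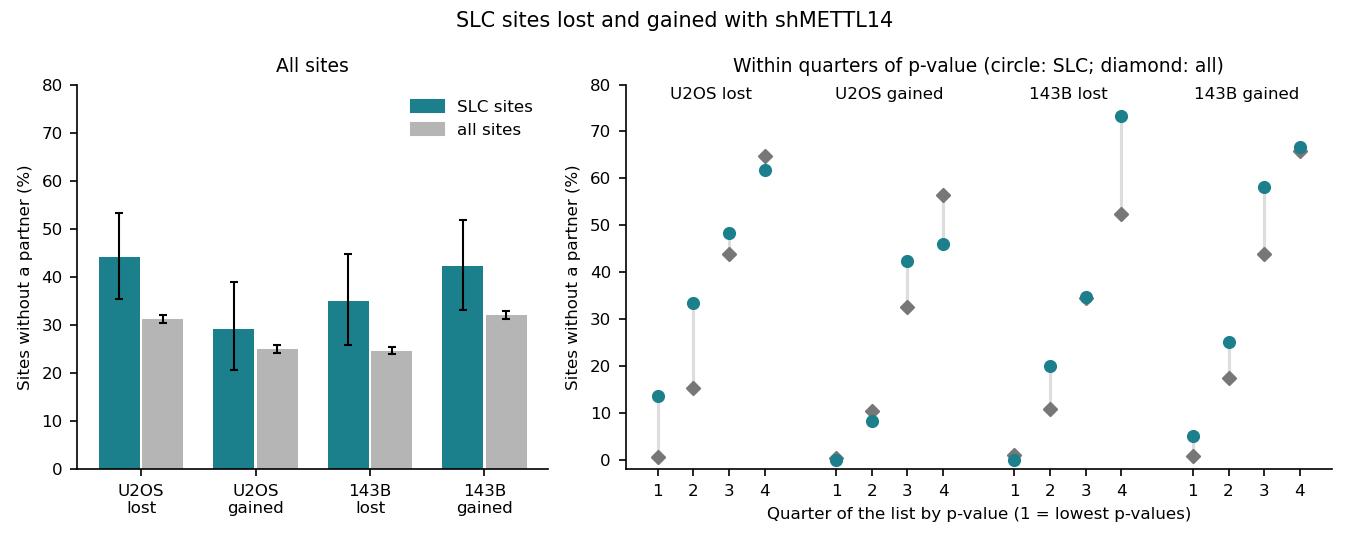
Left, share of sites without a partner (%) for SLC sites and for all sites, with exact 95% intervals as error bars. Right, the same shares within 4 bins of each list by p-value: lost SLC sites in U2OS reach 13.6% in the bin of lowest p-values, where all sites are at 0.683%.

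The 3 lost U2OS sites in the bin of lowest p-values lay on SLC39A9, SLC2A12 and SLC26A2. By p-value they ranked 3, 5 and 17 among the 3647 lost sites of U2OS. SLC39A9, a zinc carrier of the Golgi, had its 5' UTR site at 5.0e-14, SLC2A12, the glucose transporter GLUT12, its stop codon site at 1.3e-12, and SLC26A2, a sulfate transporter needed for cartilage matrix, a coding site at 4.0e-11. In 143B the lost SLC site with the lowest p-value was on SLC7A5 (4.8e-09, rank 45 of 3017). Among the gained sites of 143B an SLC7A6OS coding site ranked 13 of 4120 (6.3e-15), and among those of U2OS an SLC24A1 site ranked 130 of 2700 (5.0e-07). These sites were picked after their values were seen.

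Counted in genes, 24 of 80 SLC genes with a U2OS NC peak had none with shMETTL14 (30.0%; 16.9% of all genes), and 17 of 73 with a U2OS shMETTL14 peak had none with NC (23.3%; 12.4% of all genes). The 143B counts were 16 of 75 (21.3%; 11.8% of all genes) and 26 of 85 (30.6%; 15.5% of all genes). Of the lost SLC sites, 24 of 56 in U2OS (42.9%) and 20 of 37 in 143B (54.1%) were on genes that still had another peak, beside 64.2% and 70.2% of all lost sites. SLC genes had fewer sites per gene than all genes (1.36 to 1.59 against 1.80 to 1.88). Gene shares here and below were not matched for that number, on which they depend. Between NC and shMETTL14, 40 of the 97 members with a U2OS site had fewer sites (41.2%; 32.5% of all genes) and 24 had more (24.7%; 24.1% of all genes). In 143B 28 members had fewer (27.7%; 26.2% of all genes) and 34 had more (33.7%; 32.1% of all genes), shares close to those of the whole list.

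**Figure D3:**
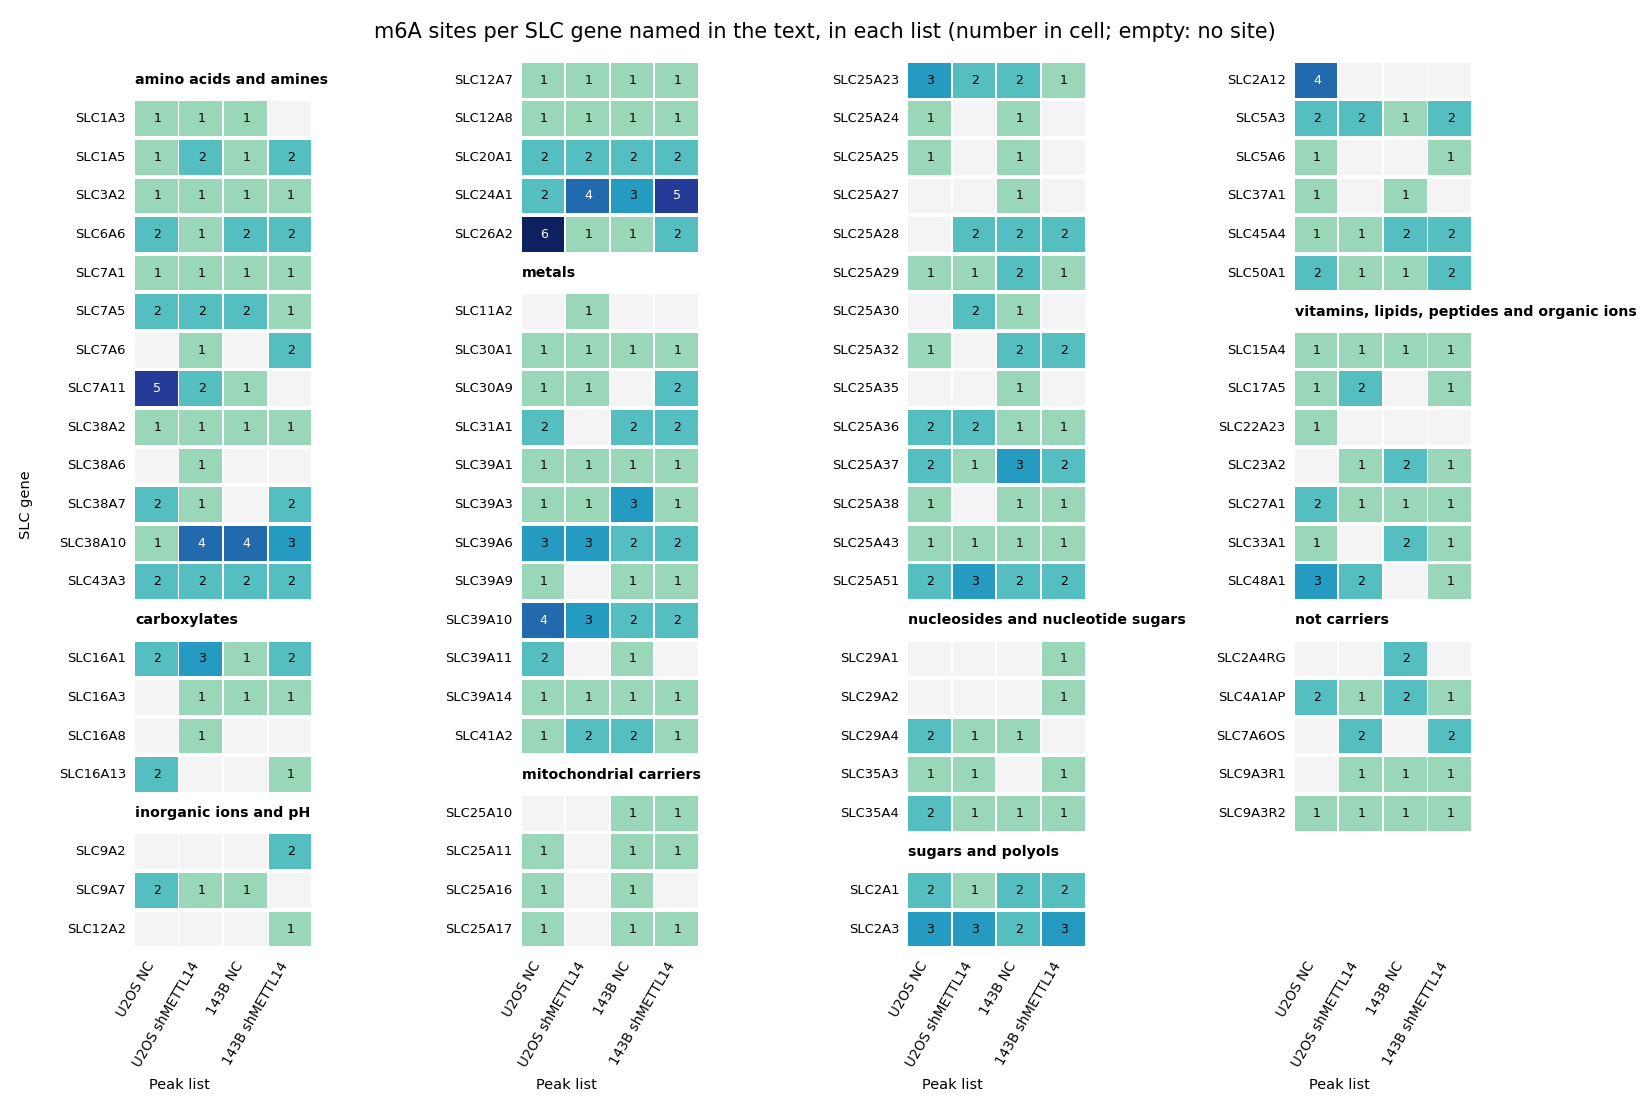
Number of m6A sites on each SLC gene named in the text (rows, grouped by what they carry) in each of the 4 peak lists (columns), with empty cells for no site. SLC26A2 with 6 and SLC7A11 with 5 sites in U2OS NC are the darkest cells of that list, and both have fewer sites in the other 3.

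Joining sites across the 4 lists gave 198 SLC sites among 18714 in all. Present in all 4 lists were 41 (20.7%, interval 15.3 to 27.0), beside 30.1% of all such sites, and in 32 of the 41 every single-list site had its partner. Of the 41, 1 is counted under SLC25A10 although that gene has listed peaks in 143B alone. In U2OS the place is listed under MRPL12, the gene before it. In 143B NC a site there is listed under MRPL12 too, and the 143B shMETTL14 site holds peaks of both genes. In 1 list alone were 94 (47.5%), beside 37.8% of all. U2OS NC alone held 30 (15.2%; 9.17% of all) and 143B shMETTL14 alone held another 30 (15.2%; 12.3% of all). Sites present with both hairpins in U2OS and in no 143B list numbered 10 (5.05%; 4.33% of all). Those present with both in 143B and in no U2OS list numbered 4 (2.02%, interval 0.553 to 5.09; 7.26% of all).

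**Figure D4:**
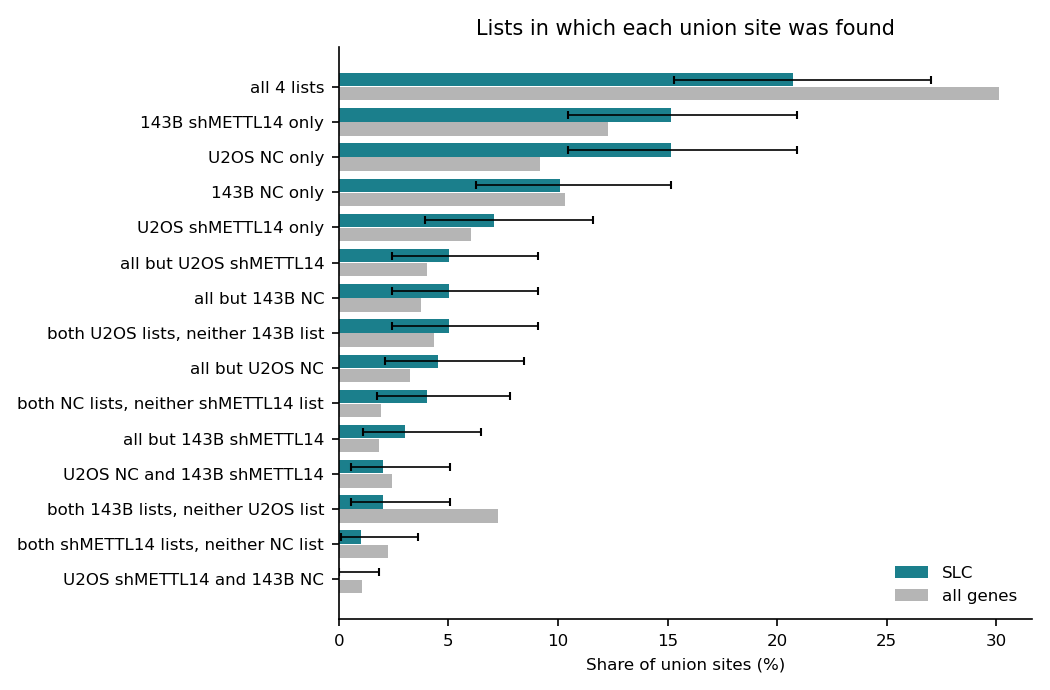
Share of union sites (%) by the lists in which they were found, for SLC sites with exact 95% intervals and for all genes. Sites in all 4 lists make up 20.7% of SLC sites and 30.1% of all.

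Of 65 SLC sites in both NC lists, 8 were absent from both shMETTL14 lists (12.3%; 5.07% of all sites in both NC lists). Counted over all union sites, these 8 made up 4.04% (1.92% of all). They include sites on SLC7A11, SLC9A7, SLC39A11, SLC25A16, SLC37A1, SLC33A1 and SLC4A1AP. Of 62 SLC sites in both shMETTL14 lists, 2 were in neither NC list (3.23%; 5.72% of all), namely on SLC7A6OS and SLC35A3, or 1.01% of the union sites (2.25% of all). Counted in genes, 5 of the 56 members with peaks in both NC lists had none in either shMETTL14 list (8.93%; 2.60% of all genes): SLC25A16, SLC25A24, SLC25A25, SLC37A1 and SLC39A11. SLC7A6 and SLC7A6OS, 2 of 54, had peaks in both shMETTL14 lists and in neither NC list (3.70%; 2.30% of all genes).

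Of all 123 members, 38 had a peak, and with it a site, in each list (30.9%; 51.0% of all genes had a peak in each list). In 13 of these 38 every site was kept in both lines (34.2%; 37.2% of all genes with a site in each list). They were SLC3A2, SLC7A1, SLC38A2, SLC43A3, SLC12A7, SLC20A1, SLC15A4, SLC25A36, SLC25A43, SLC30A1, SLC39A1, SLC39A14 and SLC9A3R2.

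The members are described next by what they carry. Beside each group's counts stand the shares of all sites, 31.2% lost and 24.9% gained in U2OS and 24.6% lost and 32.0% gained in 143B. Where a site is in several lists, the coordinates span them unless 1 list is named.

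The group of amino acid carriers, the 19 genes of families 1, 3, 6, 7, 36, 38 and 43, had shares near those of all sites. They lost 6 of 22 sites in U2OS (27.3%; 31.2% of all sites) and 5 of 16 in 143B (31.3%; 24.6%), and gained 5 of 24 (20.8%; 24.9%) and 6 of 18 (33.3%; 32.0%).

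SLC3A2, the heavy chain CD98 that partners both SLC7A5 and SLC7A11, carried 1 site across the stop codon (chromosome 11, 62656059 to 62656352, plus strand, hg19) in all lists. Its fold enrichment was 3.20 for U2OS NC, 4.93 for U2OS shMETTL14, 8.07 for 143B NC and 3.02 for 143B shMETTL14, with p-values from 7.9e-28 to 1.3e-41. SLC7A5, the light chain LAT1 for large neutral amino acids, had a 3' UTR site at 87864494 to 87865036 on chromosome 16 in every list, at 2.97, 3.4, 3.65 and 4.32 in the same order. Its weaker 3' UTR site at 87866046 to 87866264 was listed at 1.81, 1.75 and 2.24 in the first 3 lists and was absent from 143B shMETTL14. The heavy chain and the main LAT1 site were therefore listed with both hairpins in both lines.

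SLC7A11, the cystine-glutamate exchanger xCT that supplies cystine for glutathione, had 5 sites for U2OS NC, 2 for U2OS shMETTL14, 1 for 143B NC and 0 for 143B shMETTL14. The U2OS NC sites ran from the 5' UTR (chromosome 4, 139163383 to 139163473, minus strand, fold enrichment 7.06) over the stop codon (139092978 to 139093128, 3.03) to 3 places in the 3' UTR, at 14.1, 8.99 and 12.8. With shMETTL14 the stop codon site remained listed at 2.37 and the 3' UTR site at 139088516 to 139088695 at 12 (8.99 with NC). The 5' UTR site was the single SLC7A11 site of 143B NC (3.91) and was lost in both lines. The 8 listings had p-values between 2.1e-05 and 0.0034.

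Among other amino acid carriers, SLC38A2, a sodium-coupled glutamine and alanine carrier, had its 3' UTR site (chromosome 12, 46752632 to 46753231) at 2.30, 1.99, 2.97 and 2.66 in U2OS NC, U2OS shMETTL14, 143B NC and 143B shMETTL14. SLC7A1, an arginine carrier, had 1 3' UTR site at 5.88, 12.7, 4.95 and 5.48. SLC43A3, grouped here by its family number but known as a purine nucleobase transporter, kept a pair of 3' UTR sites in every list. SLC1A5, the glutamine carrier ASCT2, had 1 NC site in each line and 2 with shMETTL14, all around its start codon. In U2OS these were a 5' UTR site with both hairpins (1.35 and 1.60) and a gained coding site (1.80). In 143B a single NC site (47290871 to 47291732 on chromosome 19, 4.51) overlapped both of the shMETTL14 sites (2.33 and 1.68), so that 0 were gained.

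SLC38A10 went from 1 to 4 sites in U2OS and from 4 to 3 in 143B. None of its sites was gained, and 1 was lost, in 143B. A single U2OS NC site that spans 79219427 to 79234067 on chromosome 17 over several exons overlapped all 4 shMETTL14 sites. SLC38A7, a lysosomal glutamine carrier, went from 0 to 2 sites in 143B, with a 3' UTR site at 21.1 that U2OS had with both hairpins (16.7 and 16.3). SLC6A6, the taurine transporter, lost 1 3' UTR site in each line, at different places: 14527111 to 14527171 on chromosome 3 in U2OS and 14529956 to 14530255 in 143B. SLC1A3, a glutamate transporter, kept its stop codon site in U2OS (6.49 and 4.47) and lost it in 143B, where the NC value of 14.3 had a p-value of 0.00071. SLC38A6 had a gained U2OS site across the stop codon (15.3).

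SLC7A6, an amino acid exchanger that also pairs with SLC3A2, had 0 sites in both NC lists, 1 in U2OS shMETTL14 (2.5) and 2 in 143B shMETTL14 (2.19 and 2.87), all in the 3' UTR. Its 143B sites at 68335004 to 68335154 and 68335214 to 68335393 on the plus strand of chromosome 16 overlap sites called on the minus strand for SLC7A6OS, at 68335019 to 68335139 and 68335229 to 68337967. The genes converge there, and whether reads were assigned by strand is not given in the sources used here, so the signal of these 2 genes cannot be told apart at these places. SLC7A6OS had 0, 2, 0 and 2 sites over the lists in the same order, with all 4 gained.

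Sugar carriers, grouped by family number whatever a single member carries, lost 7 of 17 U2OS NC sites (41.2%; 31.2% of all sites). They gained 0 of 9 in U2OS, which allows a share of up to 33.3% (24.9% of all sites). In 143B they lost 3 of 10 (30.0%; 24.6%) and gained 6 of 13 (46.2%; 32.0%). SLC2A12 accounted for 4 of the 7 U2OS losses. Another was on SLC5A6, at a place that is also listed for ATRAID on the opposite strand. GLUT12 is an insulin-responsive glucose transporter.

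SLC2A12 had 4 sites in U2OS NC and 0 in each of the other 3 lists. They lay on the minus strand of chromosome 6, across the stop codon (134311994 to 134312443, fold enrichment 3.48, p-value 1.3e-12) and at 3 places in the coding sequence, at 2.26, 2.57 and 2.09. The coding p-values were 1.4e-08, 4.3e-06 and 6.5e-05. No site of this gene was listed in 143B with either hairpin.

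SLC2A1, the widespread glucose transporter GLUT1, had 2, 1, 2 and 2 sites in U2OS NC, U2OS shMETTL14, 143B NC and 143B shMETTL14. Its site at the 5' end of the message was listed at 3.99, 1.97, 1.88 and 2.14, and its 3' UTR site (43392217 to 43392367 on chromosome 1 over 3 lists) at 1.79 in U2OS NC, where it was lost, and at 1.78 and 1.65 in 143B. SLC2A3 (GLUT3) had 3, 3, 2 and 3 sites, all of them within the 3' UTR except 1 across the stop codon in 143B shMETTL14. Its near copy SLC2A14 may share reads, so the SLC2A3 values are uncertain. SLC5A3, which imports myo-inositol, had a site across the stop codon in every list (6.85, 5.35, 8.69 and 7.76). SLC50A1 had 3' UTR sites at up to 28.3 in U2OS shMETTL14, where 1 site overlapped both NC sites. SLC37A1, a sugar-phosphate exchanger, had its 3' UTR site (chromosome 21, 44000954 to 44001104) lost in both lines, at 5.39 in U2OS NC and 13 in 143B NC. SLC45A4 kept its 3' UTR site in all lists, at 14.1, 7.08, 18.3 and 3.32, while a 143B coding site at 5.22 was lost and another at 15.5 gained.

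**Figure D5:**
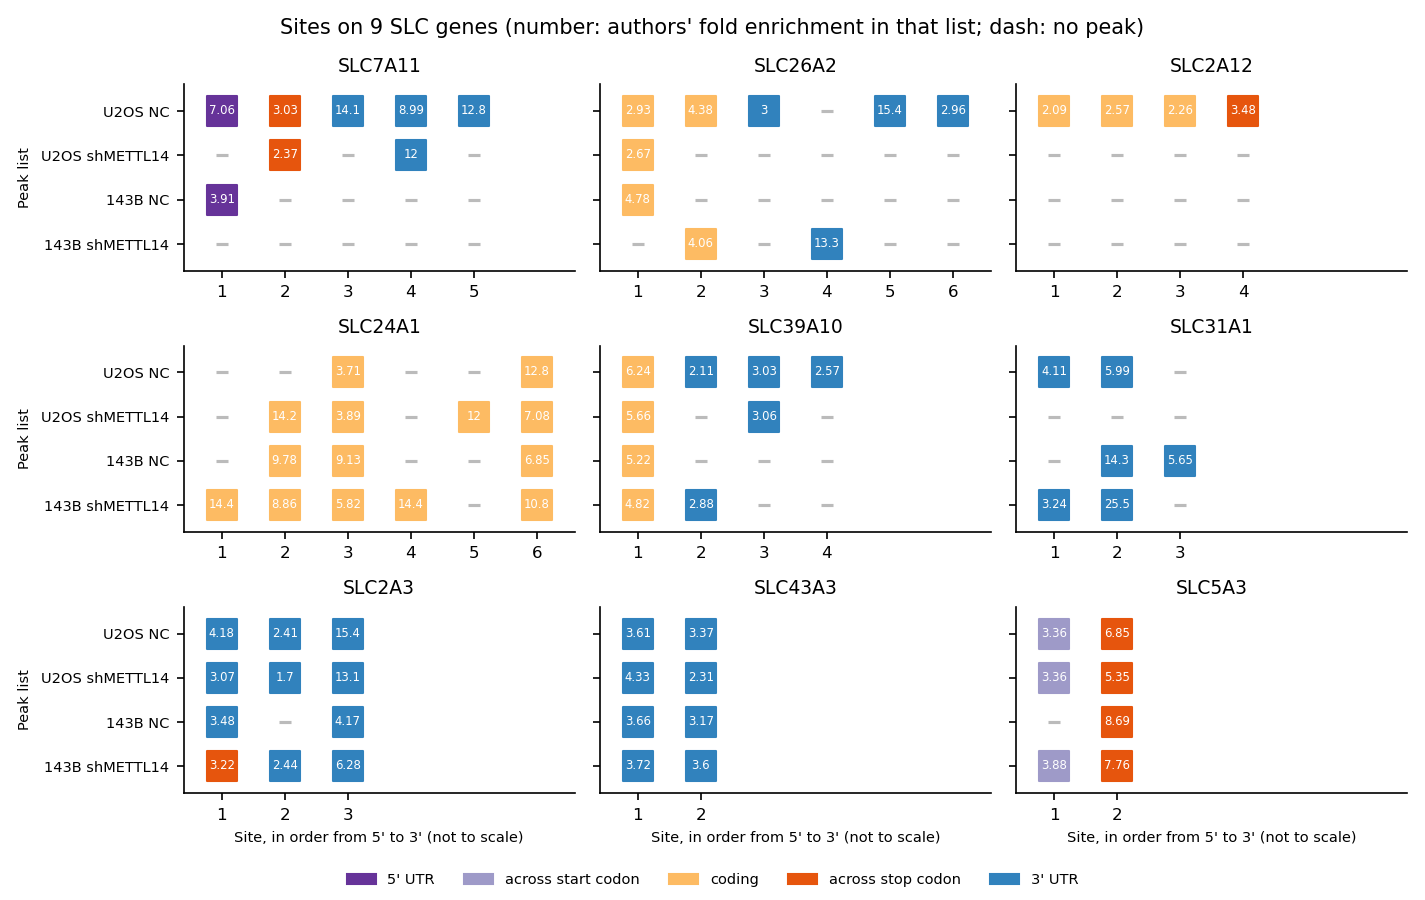
Sites of 9 SLC genes in order from 5' to 3' (horizontal, not to scale) in the 4 lists (vertical), coloured by transcript region, with the authors' fold enrichment printed in the square (where a list has several sites in 1 place, that of lowest p-value). The SLC2A12 squares sit in the U2OS NC row, while SLC43A3 has squares at both of its sites in all 4 rows.

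Carboxylate carriers, all of family 16 here, were few. In U2OS 3 of 5 NC sites were lost (31.2% of all sites) and 4 of 6 shMETTL14 sites gained (24.9%), and in 143B 2 of 6 were lost (24.6%) and 1 of 6 gained (32.0%). SLC16A1, the lactate transporter MCT1, held the strongest SLC site of the data. Its site across the stop codon (starting at 113456259 on chromosome 1, minus strand) was listed at 5.6, 4.58, 4.88 and 4.28, with p-values of 1.6e-58, 1.6e-56, 1.0e-114 and 1.0e-110. A coding site next to it was listed separately in 3 lists and was part of the main site in 143B NC. U2OS shMETTL14 had a gained 5' UTR site as well (113471961 to 113478580, 4.05, p-value 0.00023). SLC16A3, the lactate exporter MCT4, had no site in U2OS NC, a gained 3' UTR site in U2OS shMETTL14 (15.3, p-value 0.00018) and a kept site in 143B (3.13 and 3.18). SLC16A13 had 2 lost sites in U2OS and 1 gained 3' UTR site in 143B, at the place of 1 of the U2OS losses (6943292 to 6943440, chromosome 17).

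Carriers of inorganic ions and protons lost 13 of 23 sites in U2OS (56.5%; 31.2% of all sites) and 7 of 14 in 143B (50%; 24.6%). They gained 4 of 14 in U2OS (28.6%; 24.9%) and 13 of 20 in 143B (65.0%; 32.0%). SLC26A2 gave 5 of the 13 U2OS losses.

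SLC26A2 had 6 sites for U2OS NC, 1 for U2OS shMETTL14, 1 for 143B NC and 2 for 143B shMETTL14. Defects of this sulfate transporter cause chondrodysplasias. In U2OS NC, 3 sites lay in coding sequence on the plus strand of chromosome 5 (149360026 to 149360236, 149360295 to 149360445 and 149360864 to 149361283, at 2.93, 2.70 and 4.38) and 3 in the 3' UTR (3.0, 15.4 and 2.96). With shMETTL14 1 coding site was listed, at 149360355 to 149360505 with a fold enrichment of 2.67 and a weak p-value of 0.0031. In 143B the NC site at 149360056 to 149360325 (4.78) was lost. There the shMETTL14 list had a coding site at 149360894 to 149361103 (4.06), inside the strongest U2OS NC site, and a 3' UTR site at 13.3, and both were gained. SLC26A2 sites thus went down in number in U2OS and up by 1 in 143B.

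SLC12A7, the potassium-chloride cotransporter KCC4, kept a 3' UTR site in all lists, at 3.97, 3.20, 7.83 and 3.46. SLC12A2, the cotransporter NKCC1, had 1 site, gained in 143B (6.65). SLC12A8 had a coding site in U2OS with both hairpins (4.17 and 5.08) and in 143B shMETTL14 (9.42), while its 143B NC site, in the 3' UTR (14.3), was lost.

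SLC24A1, a sodium-calcium-potassium exchanger known from rod photoreceptors, went from 2 to 4 sites in U2OS and from 3 to 5 in 143B, all in coding sequence. Its last site, at 65942742 to 65943162 on chromosome 15, was in every list, at 12.8, 7.08, 6.85 and 10.8. In U2OS 2 sites were gained (14.2 and 12), and in 143B 3 were gained (14.4, 5.82 and 14.4) and 1 was lost (9.13). SLC20A1, the phosphate carrier PiT1, kept a coding and a 3' UTR site in all lists, at 1.62 to 2.74 and 1.94 to 2.65. SLC20A2 had no row in the lists. SLC9A7, a sodium-proton exchanger of organelles, had a 3' UTR site lost in both lines (46465592 to 46465802 on chromosome X, 5.14 in U2OS NC and 2.87 in 143B NC). The peaks of both lines meet there in 1 base, and U2OS kept a neighbouring site. SLC9A2, a related exchanger of the plasma membrane, had 2 gained sites in 143B (12.2 and 17.7).

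Metal carriers lost 8 of 21 sites in U2OS (38.1%; 31.2% of all sites) and 6 of 18 in 143B (33.3%; 24.6%). They gained 3 of 17 in U2OS (17.6%), below the 24.9% of all sites, and 8 of 20 in 143B (40.0%; 32.0%). Zinc importers of family 39 and zinc exporters of family 30 made up most of this group. SLC39A14, which imports zinc and non-transferrin iron, kept its site around the stop codon on chromosome 8 in all lists (2.70, 2.46, 3.69 and 2.51). SLC30A1, the zinc exporter of the plasma membrane, kept a site at the end of its coding sequence (5.50, 3.67, 7.83 and 4.02), and SLC39A1 a 3' UTR site at 1.73 to 2.0.

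SLC39A10 had 4, 3, 2 and 2 sites over the lists. Its strong coding site near 196545080 on chromosome 2 was in all 4, at 6.24, 5.66, 5.22 and 4.82 with p-values between 6.3e-33 and 2.0e-15. In U2OS 2 weak 3' UTR sites were lost (2.11 and 2.57, p-values 0.0019 and 0.0021). One of these, at 196600214 to 196600274, was gained in 143B at 2.88. SLC39A6 had 3, 3, 2 and 2 sites and lost none, with 1 coding site gained in U2OS (2.14). SLC39A9 had a 5' UTR site on chromosome 14 at 4.49 in U2OS NC, 4.82 in 143B NC and 2.99 in 143B shMETTL14, and none in U2OS shMETTL14. SLC39A11 went from 2 to 0 sites in U2OS and from 1 to 0 in 143B. Its 3' UTR site at 70642837 to 70643136 on chromosome 17 was lost in both lines (6.85 and 6.09). SLC39A3 had 1, 1, 3 and 1 sites, and its 2 lost 143B sites were listed at 9.56 and 14.3.

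SLC31A1, the copper importer CTR1, went from 2 to 0 sites in U2OS, whereas 143B had 2 with each hairpin, of which 1 was lost, 1 gained and 1 kept. All lay in the 3' UTR on chromosome 9. Over 116023222 to 116023699 the U2OS NC site (5.99) and the 143B NC site (14.3) each overlapped the 143B shMETTL14 site (25.5), though not each other. SLC30A9 went from 0 to 2 sites in 143B, at a place listed in U2OS with both hairpins (3.11 and 3.62).

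Genes of family 25 were the largest group with 25 genes. They are grouped here as mitochondrial carriers by family number alone, whatever organelle a single member serves. In U2OS they lost 9 of 19 sites (47.4%; 31.2% of all sites) and gained 7 of 16 (43.8%; 24.9%). In 143B their shares were near those of all sites or below, with 7 of 27 lost (25.9%; 24.6%) and 6 of 22 gained (27.3%; 32.0%). The difference between lines was not tested. SLC25A36, which carries pyrimidine nucleotides, had a strong site across the stop codon in every list, at 7.43, 7.57, 9.16 and 7.41 with p-values from 3.2e-38 to 6.3e-92.

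The related ATP-magnesium/phosphate carriers SLC25A23, SLC25A24 and SLC25A25 each had fewer sites with shMETTL14 in both lines. SLC25A23 went from 3 to 2 and from 2 to 1. SLC25A24 went from 1 to 0 in each line, and so did SLC25A25, but their U2OS and 143B sites lay at different places. For SLC25A24 the U2OS site was at 108742457 to 108742517 on chromosome 1 (8.35) and the 143B site at 108679017 to 108679266 (3.26). In SLC25A23, 1 shMETTL14 site of U2OS (6441117 to 6442026, chromosome 19) overlapped both NC sites there, so 0 of the U2OS sites were lost. SLC25A16 had a site across the stop codon (70243118 to 70243305, chromosome 10) lost in both lines, at 3.31 in U2OS NC and 3.35 in 143B NC.

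The mitochondrial iron importers SLC25A37 and SLC25A28 (mitoferrin 1 and 2) showed separate patterns. SLC25A37 had 2, 1, 3 and 2 sites over U2OS NC, U2OS shMETTL14, 143B NC and 143B shMETTL14. Its gained 143B site in the 3' UTR (23431715 to 23432045, chromosome 8) had the highest fold enrichment of any SLC site of that list, 27.7, and includes peaks listed under the name FP15737. SLC25A28 had 0 sites in U2OS NC and 2 in each other list. SLC25A51, the mitochondrial NAD carrier, had 2, 3, 2 and 2 sites, with a 3' UTR site gained in U2OS at 18.5 that 143B had with both hairpins (13 and 15.5). SLC25A27, an uncoupling protein, had 1 lost 143B site, at 13 with a p-value of 0.00068. SLC25A11, SLC25A17, SLC25A32 and SLC25A38 each lost a U2OS site that was kept in 143B. SLC25A30 had 2 gained 3' UTR sites in U2OS and 1 lost one in 143B, at 3 places that do not overlap. SLC25A29 had 1 site lost and 1 gained in U2OS, and the broader 143B shMETTL14 site (100757448 to 100758431, chromosome 14) covers both places.

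Carriers of nucleosides and nucleotide sugars had 6, 5, 3 and 5 sites, of which 3 were lost (31.2% of all sites) and 2 gained (24.9%) in U2OS and 1 lost (24.6%) and 3 gained (32.0%) in 143B. SLC29A1 (ENT1), the main equilibrative nucleoside transporter, and SLC29A2 each had 1 site, gained in 143B, at 2.70 and 2.46. SLC29A4 had 2, 1, 1 and 0 sites and a 3' UTR site at 5.88, 3.44 and 5.22 in the first 3 lists. SLC35A3, which carries UDP-N-acetylglucosamine into the Golgi, lost a 3' UTR site in U2OS (12.8) and had another, at 100490026 to 100490235 on chromosome 1, gained in both lines (14.2 and 13.3), whose peaks meet in 1 base. SLC35A4 had sites from the 5' UTR to the start codon in all lists, at 2.91, 3.14, 4.11 and 2.83.

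Carriers of vitamins, lipids, peptides and organic ions lost 6 of 11 sites in U2OS (54.5%; 31.2% of all sites) and 3 of 6 in 143B (50%; 24.6%), and gained 2 of 7 (28.6%; 24.9%) and 4 of 7 (57.1%; 32.0%). SLC22A23 had the lost U2OS SLC site of highest fold enrichment, 18.0, in its 3' UTR. SLC33A1, the acetyl-CoA carrier of the endoplasmic reticulum, had a 3' UTR site (155544289 to 155544528, chromosome 3) lost in both lines, at 8.35 and 13, whose peaks meet in 1 base. SLC27A1, a fatty acid transport protein, kept a 3' UTR site in all lists (5.14, 8.17, 9.78 and 3.69) and lost another in U2OS (15.4). SLC48A1, a heme transporter, had 3, 2, 0 and 1 sites, and the 143B site was gained at 21.1. SLC17A5 (sialin) had 1, 2, 0 and 1 sites, and SLC23A2, a vitamin C transporter, 0, 1, 2 and 1. SLC15A4 kept its site in every list.

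The 5 members that are not carriers had 3, 5, 6 and 5 sites. SLC9A3R2 kept a strong site at the start of its 3' UTR in all lists (6.62, 5.70, 6.19 and 4.89, p-values from 6.3e-28 to 3.2e-81). SLC4A1AP kept 1 coding site (5.83, 5.81, 5.46 and 8.47) and lost another in both lines (3.12 and 2.32). SLC9A3R1 had no site in U2OS NC and 1 in each other list. SLC2A4RG had 2 sites in 143B NC, both lost, and none elsewhere.

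Of 8 carrier roles, 7 had a lost share above that of all sites in U2OS and 8 in 143B, and 5 and 6 had a gained share above it. The exception for U2OS losses was the amino acid group. Other transport genes fell on both sides of the whole list. For all sites the shares were 31.2% lost and 24.9% gained in U2OS and 24.6% lost and 32.0% gained in 143B. The counts are small, and no difference from the carriers was tested. Genes SLC35B to SLC35G lost 7 of 18 sites in U2OS (38.9%) and 3 of 12 in 143B (25%). They gained 4 of 14 (28.6%) and 13 of 22 (59.1%). ABC transporters, which pump substrates with ATP, lost 4 of 9 (44.4%) and 2 of 9 (22.2%) and gained 3 of 8 (37.5%) and 4 of 10 (40%). V-ATPase subunits lost 1 of 10 in U2OS (10%) and 5 of 12 in 143B (41.7%), and gained 0 of 10 and 1 of 7 (14.3%). The sodium pump lost 1 of 3 and 2 of 4 and gained 1 of 3 and 0 of 2, and CLC channels lost 0 of 4 and 0 of 2 and gained 1 of 4 and 2 of 4. SLCO carriers lost 0 of 3 and 1 of 1 and gained 1 of 4, with no site in 143B shMETTL14.

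In each list the SLC sites of high fold enrichment had a higher median p-value than all SLC sites, by little in U2OS NC. Over all SLC sites the medians were 0.00012 for U2OS NC, 5.0e-05 for U2OS shMETTL14, 2.7e-05 for 143B NC and 9.3e-06 for 143B shMETTL14. The difference was not tested. At a fold enrichment of 10 or more there were 13, 19, 14 and 16 SLC sites over the lists, with median p-values of 0.00019, 0.00034, 0.00068 and 5.6e-05, and 7, 10, 9 and 12 of them were lost or gained. Of all sites at that fold enrichment 41.4%, 44.8%, 36.6% and 53.5% were. Several share exactly the same pair of values: SLC1A3, SLC12A8 and SLC25A35 in 143B NC at 14.3 and 0.00071, SLC33A1, SLC37A1 and SLC41A2 there at 13 and 0.0015, and SLC11A2, SLC16A8 and SLC17A5 in U2OS shMETTL14 at 13.1 and 0.0010. The counts behind such values are unknown. Single sites went the other way. SLC7A1 in U2OS shMETTL14, at 12.7, had the lowest p-value of these sites, 1.3e-23, and SLC50A1 in that list, at 28.3, had 6.6e-08. In 143B shMETTL14 SLC25A37 at 27.7 had 1.1e-07 and SLC31A1 at 25.5 had 4.5e-07.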

How the data were processed

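Peaks were mapped by MeRIP-seq in 8 libraries, an input and an enriched one for each of 4 groups; 4 peak lists of 13 columns were analysed. The tools named per the submitters' processing notes are HISAT2, Trimmomatic and FastQC 0.11.5, with build hg19 (GRCh37). Depth, strand handling, peak caller and threshold: not given in the sources used here. The fold enrichment, a linear ratio, and the p-value per peak were deposited by the authors and used to describe, rank or split sites within their own list. No count model or test across conditions was possible.

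Rows were taken by gene symbol, joined to sites by block overlap on the same strand, and named by an SLC peak where there was one, with the values of its peak of lowest p-value. Union sites were joined the same way over all lists. Coordinates count from 1. Members, role lists and named genes were chosen with earlier results of these data known. The text names, per role, the 3 members with most union sites, those with a site lost or gained in both lines, the 6 per line with the highest fold lost and gained, those with 2 or more sites against none, and a fixed list; others were picked after their values were seen, as were the splits by p-value and fold. SLC7A6OS was set apart from the carriers after the lists were seen. Intervals are exact binomial at 95%. Where a count of 0 is said to allow a share, that limit is instead 3 sites out of the number counted. Python 3.11.15, numpy 2.4.6, pandas 2.3.3, scipy 1.17.1 and matplotlib 3.10.9 were used, and the overlap was tested on simulated data. No sequence is shown, because an hg19 genome was not used here. A few genes that these rules name are not reported here.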

Additional observations from a re-analysis of the deposited data

Results flagged for a closer look

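The number of SLC sites differed between hairpins in opposite directions in the 2 lines. The shMETTL14 count minus the NC count was -24 in U2OS and 10 in 143B. The difference was not tested, since each group has 1 list.

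Among single members, 10 had differences of opposite sign, again as shMETTL14 minus NC. That of SLC26A2 was -5 in U2OS and 1 in 143B, that of SLC16A13 -2 and 1, and that of SLC38A7 -1 and 2. For SLC48A1, SLC50A1 and SLC5A6 it was -1 in U2OS and 1 in 143B. In the other direction it was 3 in U2OS and -1 in 143B for SLC38A10, 2 and -1 for SLC25A30, and 1 and -1 for SLC23A2 and SLC41A2. None of these differences was tested. In U2OS no site of SLC38A10, SLC41A2 or SLC50A1 was lost or gained. For SLC38A10 and SLC41A2 a single NC site overlapped all shMETTL14 sites, and for SLC50A1 a single shMETTL14 site overlapped both NC sites. The U2OS differences of these members thus come from how peaks were joined to sites.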

How the results depend on the processing

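The SLC share lay above that of all sites under each of 8 settings for losses in U2OS, losses in 143B and gains in 143B, and under 7 of 8 for gains in U2OS. The exception was restriction to the sites of lower p-value, those not above their list's median. There 12 of 49 SLC sites were lost in U2OS (24.5%, interval 13.3 to 38.9; 8.03% of all sites). Gained there were 2 of 40 (5.0%, interval 0.611 to 16.9; 5.37% of all sites). In 143B 6 of 50 were lost (12%, interval 4.53 to 24.3; 5.92%) and 9 of 52 gained (17.3%, interval 8.23 to 30.3; 9.08%). Except for losses in U2OS, these intervals hold the whole-list value, so at lower p-values the SLC shares of 143B are not set apart from it. Counting genes gave 30.0% lost in U2OS and 21.3% lost and 30.6% gained in 143B. Fewer or other units were counted in both settings. Requiring 50% overlap of the shorter site, allowing 100 bp, equal list lengths, listed peaks and leaving out the 5 members that are not carriers stayed inside the interval of each share. So did 3' UTR shares by listed peaks (40.5% to 50.8%), sites in all 4 lists joined within 100 bp (21.6%). With listed peaks the roles above the whole list numbered 7 and 8 of 8 for losses in U2OS and 143B, as before, and went from 5 to 6 and from 6 to 7 for gains. No paired analysis was possible because each group has 1 list and the labels give no replicate numbers. Depth is unknown, so a missing peak may lie below detection.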
